A study of Homo sapiens with 9 samples.

Results

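STC1 and STC2, the stanniocalcin genes, are described here across 9 polyadenylated RNA libraries of AC16 cells. They are 2 of the 60671 genes in the deposited expression table, and each was found there by its gene name in a single row. AC16 is an established human cell line, a fusion of ventricular cells with a fibroblast line. By their labels the libraries form 3 groups of 3: cells in high glucose with chrysin, a plant flavonoid, cells in high glucose, and cells in low glucose. The sources used here give no glucose concentration, chrysin dose or time of treatment. Nothing in them says that replicates came from separate cultures, so the p-values below speak of the spread among these libraries alone, and that spread may be technical. Both genes were chosen by their measured FPKM differences between these groups, so their levels and fold changes are given as a description without a test. The gene lists below were also chosen with earlier results of these data known. Their counts and p-values are therefore not an independent test.

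Stanniocalcins are secreted, disulfide-linked glycoprotein hormones first found in fish, where they lower calcium uptake. In mammals they act mostly on nearby cells. Both bind and inhibit the protease PAPP-A (PAPPA), which cuts insulin-like growth factor (IGF) binding proteins and so frees IGF. STC1 and STC2 are known to be induced in low oxygen through hypoxia-inducible factor (HIF), and STC2 also by endoplasmic reticulum (ER) stress through the kinase PERK and the transcription factor ATF4. STC2 is further known to restrain calcium entry through STIM1.

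Reads recovered from the deposited FPKM values, summed over genes, came to 18171842 to 23024300 per library. Reads not assigned to a gene are not among them. FPKM values are fragments divided by transcript length and library size. High glucose library 1 differed more from the others of its group than replicates elsewhere did: the mean chi-square per gene, over genes with more than 10000 reads in a pair, was 28.1 and 31.5 for its 2 pairs and 4.82 to 7.44 for the remaining pairs. Of the cardiomyocyte markers, 3 of 12 reached 1 FPKM in any group (ACTC1, NPPB and GATA4), while MYL2 and NKX2-5 were at 0 in every library. ACTC1 did so only with chrysin (mean 4.83 FPKM, against 0.389 FPKM in high glucose and 0.385 FPKM in low glucose). NPPB averaged 10.1, 13.2 and 19.0 FPKM in that order, and GATA4 9.0, 9.4 and 8.7 FPKM. Endothelial markers reached 1 FPKM in 0 of 4 cases, leukocyte markers in 1 of 4 (CD14), and epithelial and smooth muscle markers in 3 of 4 each. All 10 fibroblast markers reached 1 FPKM. Their summed level was 6944 to 7100 FPKM with chrysin, 9894 to 10300 FPKM in high glucose and 8578 to 8843 FPKM in low glucose, with COL1A1 the largest part of it (2899, 5138 and 3707 FPKM). By their means 5 of the 10 had that order of groups, which is also the order of STC1 below, while COL3A1, PDGFRB, FN1 and VIM were highest in low glucose and THY1 was lowest there. The epithelial sum was 233 to 243 FPKM with chrysin, 331 to 362 FPKM in high glucose and 300 to 314 FPKM in low glucose. Its largest parts were KRT18 (means of 177, 264 and 232 FPKM in that order) and KRT8 (61.0, 79.9 and 73.4 FPKM). These were the 2 of 4 epithelial markers with the order of STC1. EPCAM (1.67, 1.72 and 1.94 FPKM) and CDH1, under 1 FPKM, were highest in low glucose. CD14 averaged 1.94 FPKM with chrysin, 3.91 FPKM in high glucose and 2.22 FPKM in low glucose. The smooth muscle sum was highest with chrysin (286 to 298 FPKM, against 182 to 197 FPKM in high glucose and 207 to 212 FPKM in low glucose). TAGLN was its largest part (means of 249 FPKM with chrysin, 152 FPKM in high glucose and 169 FPKM in low glucose). ACTA2 was also highest with chrysin (9.38, 2.53 and 2.99 FPKM in the same order). CNN1 was lowest with chrysin (31.7, 33.6 and 37.8 FPKM). The part of these shifts in the results was not tested. In these bulk libraries, fewer cells of a type and less RNA per cell cannot be told apart.

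STC1 (ENSG00000159167.11, chromosome 8, 23841915 to 23854807, minus strand, hg38) was a gene of low level that was highest in high glucose. It stood at 1.20, 0.820 and 0.899 FPKM in the chrysin libraries, at 6.67, 6.58 and 5.83 FPKM in the high glucose libraries and at 2.42, 2.19 and 2.59 FPKM in the low glucose libraries. The 3 groups did not overlap, with every high glucose library above every low glucose library and every chrysin library below both. These levels rest on 43 to 62 reads per library with chrysin, 319 to 426 reads in high glucose and 112 to 142 reads in low glucose. Exact Poisson 95% intervals of the libraries cover counting error only. They ran from 0.593 to 1.54 FPKM with chrysin, 5.21 to 7.37 FPKM in high glucose and 1.81 to 3.06 FPKM in low glucose. STC1 was chosen by these values, so the intervals do not test the difference between groups.

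STC2 (ENSG00000113739.10, chromosome 5, 173314713 to 173329503, minus strand, hg38) was among the most abundant transcripts and was highest in low glucose. It stood at 193, 203 and 195 FPKM in the chrysin libraries, at 367, 369 and 359 FPKM in the high glucose libraries and at 512, 499 and 505 FPKM in the low glucose libraries. Again the groups did not overlap, but their order was another one: chrysin lowest, high glucose between, low glucose highest. By FPKM it ranked 579 to 622 among the 24498 to 25321 genes above 0 in a chrysin library, 248 to 265 of 23507 to 24083 in a high glucose library and 155 to 160 of 23206 to 23709 in a low glucose library. Its reads ran from 5375 to 6571 with chrysin, from 10607 to 12920 in high glucose and from 13773 to 16235 in low glucose. The coefficient of variation within a group was 1.32% to 2.77% for STC2 and 7.22% to 20.8% for STC1, which has fewer reads.

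**Figure D1:**
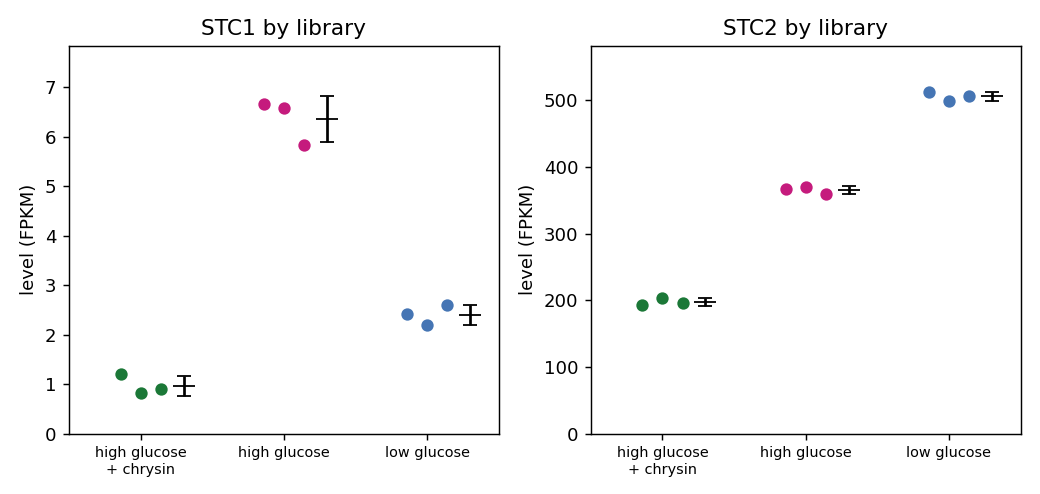
STC1 (left) and STC2 (right) in FPKM on linear axes from 0. Each point is a library (replicates 1 to 3 from left to right in a group), and the bar beside them is the mean with its SD (n = 3). STC1 is highest in high glucose (5.83 to 6.67 FPKM), STC2 in low glucose (499 to 512 FPKM), and both are lowest with chrysin.

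Cells in high glucose with chrysin were set against cells in high glucose without it. The labels do not say whether the sugar or chrysin came earlier. Both stanniocalcins were lower with chrysin. STC1 averaged 0.974 ± 0.203 FPKM with chrysin and 6.36 ± 0.459 FPKM in high glucose (SD, n = 3 each), a 6.53-fold lower mean. The log2 fold change, on the log2(FPKM + 0.5) scale that understates the change of low genes, was -2.23 (SE 0.12), the eighth lowest of the 16996 genes tested. STC2 averaged 197 ± 5.47 FPKM with chrysin and 365 ± 5.51 FPKM in high glucose, a 1.85-fold lower mean and a log2 fold change of -0.89 (SE 0.03), which was place 332 among the lowest. For either gene the highest chrysin library lay below the lowest high glucose library, by 4.85-fold for STC1 and by 1.76-fold for STC2. Groups parted in that direction at 24.5% of all genes tested.

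Between the sugar levels alone, high against low, the stanniocalcins went opposite ways. STC1 averaged 6.36 ± 0.459 FPKM in high glucose and 2.40 ± 0.201 FPKM in low glucose (SD, n = 3 each), 2.65-fold higher, with a log2 fold change of 1.24 (SE 0.12) at place 20 among the highest. STC2 averaged 365 ± 5.51 FPKM in high glucose and 506 ± 6.65 FPKM in low glucose, 1.39-fold lower by the means, with a log2 fold change of -0.47 (SE 0.03) at place 726 among the lowest. Groups parted upward at 22.5% and downward at 15.4% of all genes tested. Without high glucose library 1 the log2 fold changes were 1.21 for STC1 and -0.47 for STC2.

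Set against low glucose, the cells in high glucose with chrysin had less of both transcripts. STC1 averaged 0.974 ± 0.203 FPKM with chrysin and 2.40 ± 0.201 FPKM in low glucose (SD, n = 3 each), 2.47-fold lower by the means, with a log2 fold change of -0.98 (SE 0.12). STC2 averaged 197 ± 5.47 FPKM with chrysin and 506 ± 6.65 FPKM in low glucose, 2.56-fold lower, with a log2 fold change of -1.36 (SE 0.03), at place 102 among the lowest. Groups parted downward at 25.4% of all genes tested. The 3 comparisons share libraries in pairs, so they are not independent of each other.

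Within a library, STC2 exceeded STC1 by a factor that depended on the group. The ratio of STC2 to STC1 FPKM was 160, 248 and 217 with chrysin, 55.0, 56.1 and 61.5 in high glucose and 211, 227 and 195 in low glucose. The high glucose libraries were apart from the other 6, while the chrysin and low glucose libraries overlapped (mean 209 ± 44.5 with chrysin and 211 ± 16.3 in low glucose, SD, n = 3 each). The near equal ratios arose at different levels, since both genes were lower with chrysin than in low glucose. How large the ratio is depends on the gene length used. The FPKM values imply lengths of 2810 bases for STC1 and 1519 for STC2, close to the mean over their 2 and 5 transcripts in GENCODE 29 (2816 and 1518 bases), while the longest transcripts have 3883 and 5353 bases. Per base of the longest transcript, STC2 exceeded STC1 by a factor of 81.8 ± 17.5 with chrysin, 22.6 ± 1.36 in high glucose and 82.8 ± 6.40 in low glucose (SD, n = 3). A length that is the same in every library cancels out in comparisons between groups, but whether the groups used the transcripts alike was not tested.

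**Figure D2:**
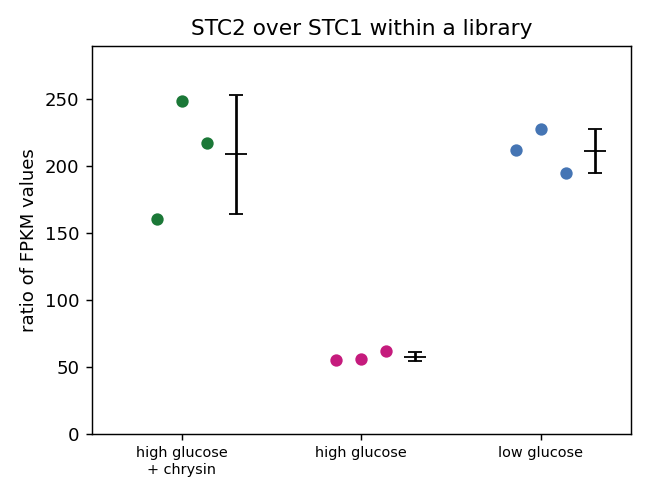
Ratio of STC2 to STC1 within each library, from FPKM values, on a linear axis from 0. Points are libraries and the bars show the mean and SD (n = 3). The high glucose libraries lie at 55.0 to 61.5, below the chrysin (160 to 248) and low glucose (195 to 227) libraries.

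The protease that stanniocalcins inhibit, its substrates and the IGF ligands and receptors formed a list of 10 genes, of which 6 reached the 0.5 FPKM needed, as a group mean, for testing. IGF1 was listed at 0 in every library, and PAPPA2, PRG2 and IGF2 stayed below the minimum. With chrysin against high glucose 2 of the 6 rose and 2 fell at an adjusted p under 0.05 (limma), where 24.9% of all genes tested rose and 20.9% fell. The median was -0.14, against 0.03 over all genes tested. IGFBP4, the classic PAPP-A substrate, fell to 93.3 ± 3.89 FPKM with chrysin, against 148 ± 14.1 FPKM in high glucose (log2 -0.66, SE 0.06, adjusted p = 8.28e-06). IGFBP2, another IGF carrier, fell as well (-0.63, adjusted p = 0.00344). IGFBP5, also cut by PAPP-A, rose to 47.7 ± 1.78 FPKM, against 38.1 ± 1.22 FPKM (0.32, adjusted p = 0.00011), and IGF2R, which clears IGF2, rose by 0.36 (adjusted p = 2.53e-05). Without high glucose library 1, 4 of the 6 fell, with PAPPA (-0.29, adjusted p = 0.0379) and the IGF receptor IGF1R (-0.15, adjusted p = 0.0214) added.

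PAPPA itself stood at 2.98, 3.13 and 3.20 FPKM with chrysin, at 3.09, 4.05 and 3.78 FPKM in high glucose and at 4.65, 4.74 and 5.40 FPKM in low glucose. Every low glucose library was above the other 6, while the chrysin and high glucose libraries overlapped. In high against low glucose 1 of the 6 rose and 2 fell, where 14.6% of all genes tested rose and 8.91% fell (median -0.02, against 0.02 over all). IGFBP4 rose to 148 ± 14.1 FPKM in high glucose, against 123 ± 3.09 FPKM in low glucose (0.26, adjusted p = 0.00951). PAPPA fell (-0.40, SE 0.11, adjusted p = 0.0214), a call lost without high glucose library 1 (-0.30, adjusted p = 0.0605), without low glucose library 3 (-0.33, adjusted p = 0.0846) and with no filter on low values (adjusted p = 0.0526). IGF2R fell by 0.19 on the log2 scale (adjusted p = 0.00512). In the comparison of chrysin with low glucose, where 29.7% of all genes tested rose and 21.3% fell, 2 of the 6 rose and 4 fell (median -0.28, against 0.05), among them PAPPA (-0.59, adjusted p = 0.000878).

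**Figure D3:**
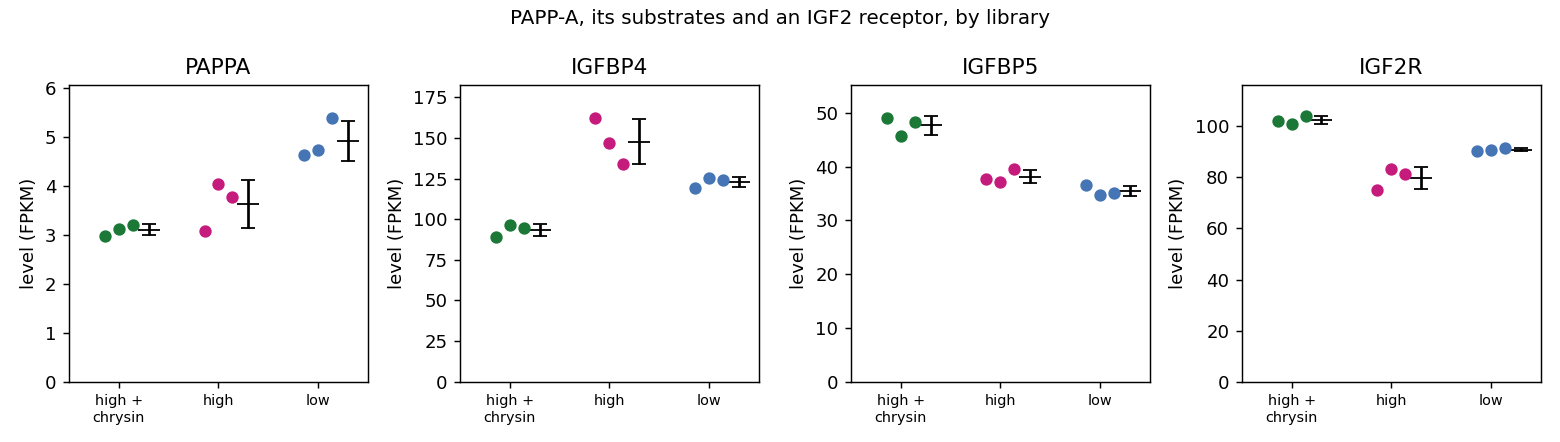
PAPPA, its substrates IGFBP4 and IGFBP5, and IGF2R in FPKM by library, on linear axes from 0. Points are libraries and the bars show the mean and SD (n = 3). IGFBP4 is lowest with chrysin and highest in high glucose, while IGFBP5 is highest with chrysin.

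Genes of store-operated calcium entry and of calcium stores, the pathway in which STC2 acts on STIM1, were counted over 13 tested of 14. With chrysin against high glucose 1 rose and 5 fell (median -0.06, against 0.03 over all genes tested), where 24.9% of all genes tested rose and 20.9% fell. ORAI2, a pore subunit, rose (0.21, adjusted p = 0.00422), and SARAF, which inactivates the channel, fell to 114 ± 4.48 FPKM with chrysin, against 141 ± 6.60 FPKM in high glucose (-0.30, adjusted p = 0.000124). The others that fell were the calcium pumps ATP2B4 (-0.60) and ATP2B1 (-0.17), the store channel ITPR2 (-0.46) and TRPC1 (-0.30). The ATP2B1 and TRPC1 calls (adjusted p = 0.0256 and 0.0414) were both lost, leaving 3 that fell, when chrysin library 1 or 2 or high glucose library 2 or 3 was left out, and when no filter was used (adjusted p = 0.0618 to 0.152). The TRPC1 call was also lost when library 1 of high or of low glucose was left out and when only the groups compared were fitted (adjusted p = 0.0513 to 0.0549). STIM1, the sensor of store calcium, stood at 39.9 ± 0.633 FPKM with chrysin and 40.5 ± 1.95 FPKM in high glucose (-0.02, adjusted p = 0.733). In high against low glucose STIM1 fell (-0.23, adjusted p = 0.00305), as did the ER calcium pump ATP2A2 (-0.42, adjusted p = 2.21e-05), with 3 of the 13 higher and 4 lower in all (14.6% and 8.91% of all genes tested, median -0.07, against 0.02). Against low glucose, chrysin cells had 3 higher and 6 lower (29.7% and 21.3% of all genes tested, median -0.21, against 0.05), and 1 higher without chrysin library 2 or 3 or low glucose library 1.

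A further 4 genes are reported binding partners or effectors of stanniocalcins. With chrysin against high glucose 3 of them rose and 1 fell (24.9% and 20.9% of all genes tested, median 0.43, against 0.03). HMOX1, the heme oxygenase reported to bind STC2, rose to 30.2 ± 2.24 FPKM with chrysin, against 20.9 ± 1.67 FPKM in high glucose (0.52, adjusted p = 0.000134). UCP3, a mitochondrial carrier of the uncoupling family, rose to 2.60 ± 0.0667 FPKM with chrysin, against 0.977 ± 0.150 FPKM in high glucose (1.08, adjusted p = 8.48e-05). Its relative UCP2 rose by 0.34 (adjusted p = 0.00361). CALR, the ER chaperone calreticulin, fell by 0.15 on the log2 scale with chrysin (adjusted p = 0.000423) and by 0.52 in high against low glucose (adjusted p = 2.19e-07). In high against low glucose UCP2 also fell and HMOX1 rose, UCP3 standing at 0.29 (adjusted p = 0.148), so that 1 rose and 2 fell (14.6% and 8.91% of all genes tested, median -0.03, against 0.02). The HMOX1 call (0.22, adjusted p = 0.0416) did not hold when any low glucose library, either of high glucose libraries 2 and 3 or chrysin library 3 was left out, nor with median-of-ratios scaling or no filter (adjusted p = 0.0507 to 0.141). The UCP2 call (-0.28, adjusted p = 0.021) was lost without high glucose library 2 (adjusted p = 0.0788) or low glucose library 1 (adjusted p = 0.0742) and with no filter (adjusted p = 0.0641). Against low glucose, HMOX1 and UCP3 rose with chrysin and CALR fell (29.7% and 21.3% of all genes tested rose and fell, median 0.40, against 0.05).

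Targets of HIF, the factor that induces stanniocalcins in low oxygen, mostly fell with chrysin and mostly rose in high against low glucose. Of 27 tested of 28, with chrysin against high glucose 24 fell and 2 rose (median -0.88, against 0.03 over all genes tested), where 20.9% of all genes tested fell and 24.9% rose. NDRG1, a stress-responsive gene with an HIF site, fell to 11.3 ± 1.91 FPKM with chrysin, against 110 ± 1.84 FPKM in high glucose (-3.24, SE 0.09, adjusted p = 4.38e-09). BNIP3, a mitophagy receptor, fell by 1.69 on the log2 scale (adjusted p = 1.71e-09), and LDHA, the lactate dehydrogenase, to 572 ± 4.25 FPKM, against 1045 ± 14.6 FPKM (-0.87, adjusted p = 2.5e-09). ADM, a peptide hormone gene, was among those that rose (0.12, adjusted p = 0.0208). The ADM call was lost without chrysin library 2 or 3 or high glucose library 2 and with median-of-ratios scaling (adjusted p = 0.0645 to 0.0823), leaving 1 that rose.

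In high against low glucose 16 of the 27 HIF targets rose and 3 fell (median 0.20, against 0.02), where 14.6% of all genes tested rose and 8.91% fell. PFKFB4, a regulator of glycolysis, rose to 22.0 ± 1.73 FPKM in high glucose, against 9.95 ± 1.11 FPKM in low glucose (1.11, adjusted p = 2.1e-05), and BNIP3 by 0.51 (adjusted p = 1.71e-05). Among those that fell were ADM (-0.32) and VEGFA (-0.56, adjusted p = 1.4e-05), the vascular growth factor. Without high glucose library 1 the counts were 16 and 3, and for chrysin against high glucose 23 fell and 2 rose. Against low glucose, 23 fell with chrysin and none rose by limma (21.3% of all genes tested fell and 29.7% rose, median -0.60, against 0.05). Those higher were 1 at an unadjusted p under 0.05, 0 by limma voom and 1 without low glucose library 3. Of the HIF subunits 4 of 5 were tested. HIF1A stood at 235 ± 1.98 FPKM with chrysin, 228 ± 13.0 FPKM in high glucose and 266 ± 2.75 FPKM in low glucose. It did not pass the test with chrysin against high glucose (0.05, adjusted p = 0.346), and fell in high against low glucose (-0.22, adjusted p = 0.00168). EPAS1 fell there too (-0.40, adjusted p = 4.42e-05), so that 2 of the 4 fell (median -0.14, against 0.02). None rose there by limma, by limma voom or at an unadjusted p under 0.05 (0 each). EPAS1 rose with chrysin against high glucose (0.13, adjusted p = 0.0156, lost without chrysin library 3, adjusted p = 0.0531), and ARNT (-0.17) and ARNT2 (-0.48) fell. In that comparison 24.9% of all genes tested rose and 20.9% fell (subunit median -0.06, against 0.03). Against low glucose, all 4 subunits tested fell with chrysin (21.3% of all genes tested, median -0.25, against 0.05).

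Targets of ATF4, in a list that also holds ATF4 itself, mostly fell in each comparison, and STC2 was lower in each. ATF4 fell by 0.14 with chrysin against high glucose, by 0.55 in high against low glucose and by 0.69 with chrysin against low glucose on the log2 scale (adjusted p = 0.000929, 2.38e-07 and 9.6e-09). Of 21 tested of 22, with chrysin against high glucose 15 fell and 1 rose (20.9% and 24.9% of all genes tested, median -0.33, against 0.03). DDIT4, an mTORC1 inhibitor, fell to 16.7 ± 1.14 FPKM with chrysin, against 59.5 ± 1.68 FPKM in high glucose (-1.81, adjusted p = 2.92e-09), and SLC7A5, an amino acid transporter, to 108 ± 3.11 FPKM, against 195 ± 5.85 FPKM (-0.85, adjusted p = 3.15e-08). SLC7A11, the cystine importer, was the 1 that rose (1.07, adjusted p = 8.08e-07), and 2 rose without chrysin library 2 or low glucose library 1, with a pseudocount of 0.1 or with the minimum raised to 5 FPKM. In high against low glucose 19 of the 21 fell and none rose by limma (8.91% and 14.6% of all genes tested, median -0.71, against 0.02), with 0 higher at an unadjusted p under 0.05 and 0 by limma voom. TRIB3, a pseudokinase of the stress response, fell to 23.4 ± 0.840 FPKM in high glucose, against 83.4 ± 1.37 FPKM in low glucose (-1.81, adjusted p = 2.46e-09). Against low glucose, 20 fell with chrysin and 1 rose, SLC7A11 (21.3% and 29.7% of all genes tested, median -1.17, against 0.05).

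ER stress sensors and chaperones act upstream of and beside ATF4. In high against low glucose 9 of 10 fell by limma (median -1.06, against 0.02), where 8.91% of all genes tested fell and 14.6% rose. None of the 10 rose by limma, by limma voom or at an unadjusted p under 0.05 (0 each). HSPA5, the main ER chaperone, stood at -2.14 (adjusted p = 8.84e-12) and the degradation factor HERPUD1 at -2.63 (adjusted p = 1.09e-11). With chrysin against high glucose 4 of 10 fell (20.9% of all genes tested, median -0.13, against 0.03), among them HERPUD1 (-0.88, adjusted p = 6.37e-08). None rose there by limma, where 24.9% of all genes tested rose, with 2 higher at an unadjusted p under 0.05 and 2 by limma voom. There ERN1, the sensor IRE1, stood at 0.29 (adjusted p = 0.0574), and it passed the test without chrysin library 3 or high glucose library 3, with limma voom on recovered reads and with the minimum raised to 5 FPKM (adjusted p = 0.0179 to 0.0476). Against low glucose, 8 fell with chrysin and 0 rose by limma (0 at an unadjusted p under 0.05, 0 by limma voom, median -1.21, against 0.05). There 21.3% of all genes tested fell and 29.7% rose.

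**Figure D4:**
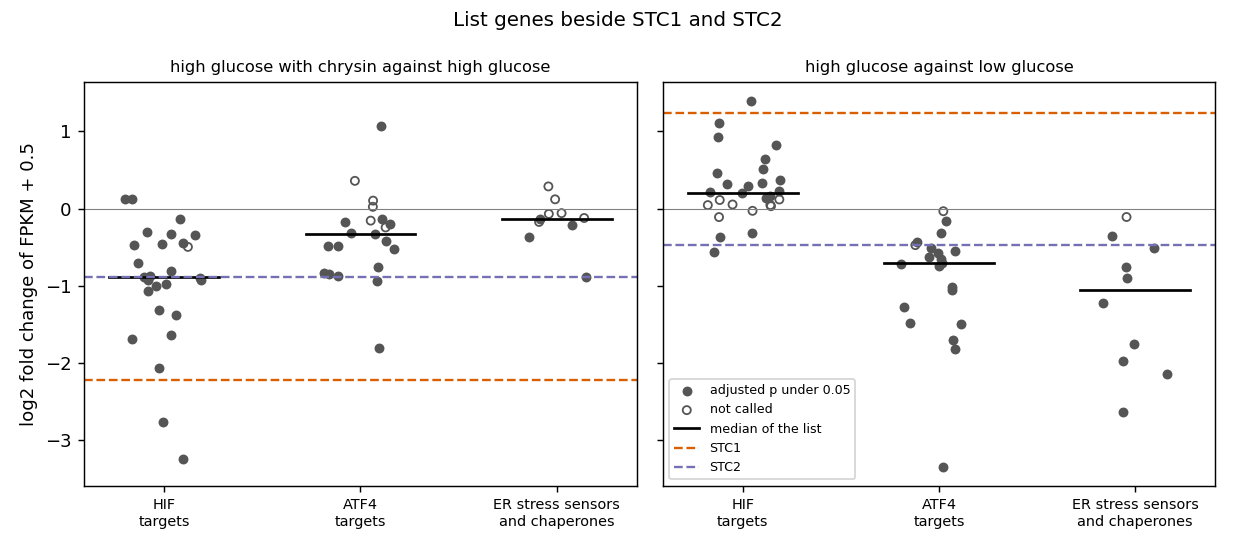
Log2 fold changes of the HIF targets, ATF4 targets and ER stress genes tested (points, filled where the adjusted p from limma is under 0.05), with the list median as a black line, for high glucose with chrysin against high glucose (left) and high glucose against low glucose (right). Dashed lines mark STC1 and STC2. In the right panel most HIF targets lie above 0 (median 0.20), on the side of STC1 (1.24). Every ATF4 list gene tested, called or not, lies below 0 there (median -0.71), on the side of STC2 (-0.47). In the left panel STC1 (-2.23) and STC2 (-0.89) both lie below 0. So do the medians of the HIF, ATF4 and ER stress lists (-0.88, -0.33 and -0.13). Whether either factor acts on STC1 or STC2 here was not tested.

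Likeness of pattern was measured as Pearson's r of log2(FPKM + 0.5) over the 9 libraries, which fall into 3 groups and share their libraries, so r mostly reflects the 3 group levels and is a description. STC1 with STC2 gave r = 0.59. Among the HIF targets the median r was 0.85 with STC1 (-0.42 to 0.98) and 0.80 with STC2 (-0.27 to 0.998). Among the ATF4 targets it was 0.19 with STC1 (-0.98 to 0.78) and 0.88 with STC2 (-0.65 to 0.995). Among the ER stress genes it was 0.004 with STC1 (-0.67 to 0.26) and 0.81 with STC2 (-0.22 to 0.93). Over the 13295 genes compared, those averaging 1 FPKM or more in a group, the median r was -0.03 with STC1 and -0.11 with STC2.

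Of these genes, the 6 most like STC1 were SBNO2 (r = 0.994), a transcriptional regulator, IDH1 (0.992), the cytosolic isocitrate dehydrogenase, TUBA1A (0.991), an alpha-tubulin with near-identical paralogs, FHOD1 (0.990), an actin-nucleating formin, DEPP1 (0.989), and COL1A1 (0.987), a chain of collagen I. Their order of groups was that of STC1, but their log2 fold changes were smaller in size than those of STC1 in every comparison. COL1A1, also on the fibroblast marker list, averaged 2899 ± 76.3 FPKM with chrysin, 5138 ± 210 FPKM in high glucose and 3707 ± 140 FPKM in low glucose. DEPP1, a gene induced by FOXO factors, came nearest of the 6 to STC1 in size (log2 -1.85 with chrysin against high glucose and 1.05 in high against low glucose), with 1.06 ± 0.347 FPKM with chrysin, 5.05 ± 0.354 FPKM in high glucose and 2.17 ± 0.132 FPKM in low glucose (SD, n = 3). The most opposite were ARSJ, an arylsulfatase (r = -0.996), FERMT2, the integrin activator kindlin-2 (-0.990), and RGS4, a regulator of G protein signalling (-0.989).

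The gene most like STC2 was VEGFA (r = 0.998), which averaged 18.7 ± 0.521 FPKM with chrysin, 39.7 ± 1.23 FPKM in high glucose and 58.8 ± 2.47 FPKM in low glucose (SD, n = 3). VEGFA is a HIF target that fell both in high against low glucose and with chrysin against high glucose, and it overlaps another tested gene (AL136131.3). The HIF and ATF4 lists hold no gene in common, so a gene that answers to both factors would be counted on 1 list only. Others among the genes most like STC2 were PHLDA1, CDC42EP3, a partner of the GTPase CDC42, PTPRB, a receptor phosphatase of vessel lining, and DAB2, an endocytic adaptor, with r of 0.996 to 0.998. The most opposite were CBX6, a Polycomb protein, WDR37 and the desaturase SCD5. SCD5 averaged 28.9 ± 0.250 FPKM with chrysin, 23.6 ± 0.384 FPKM in high glucose and 21.7 ± 0.0944 FPKM in low glucose.

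**Figure D5:**
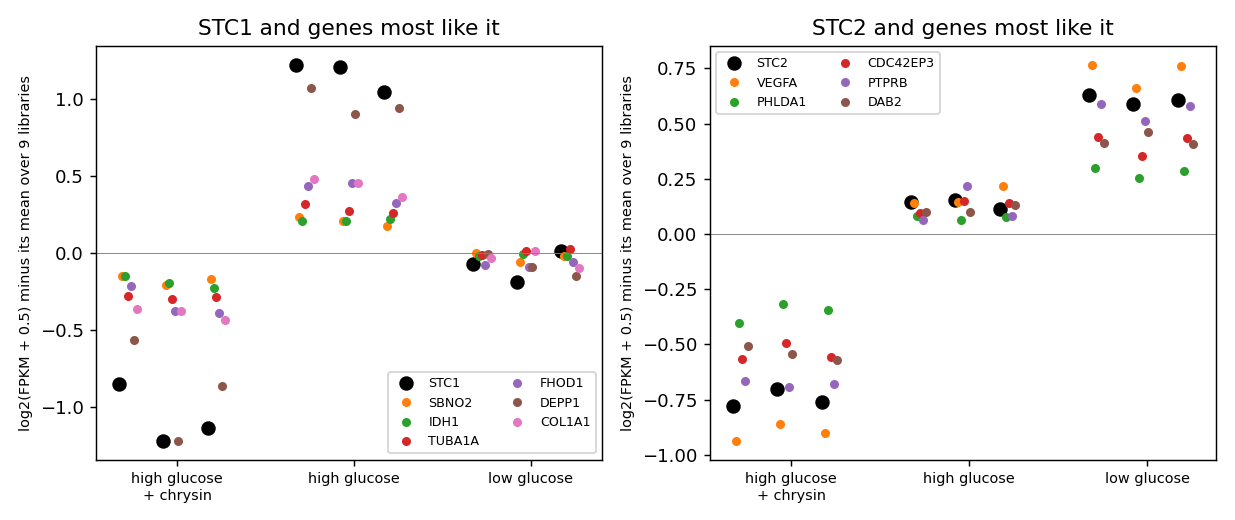
STC1 (left) and STC2 (right), in black, with genes among the 6 of highest Pearson r with each over 9 libraries. The vertical axis is log2(FPKM + 0.5) minus the gene's own mean over the libraries, and each point is a library. STC1 and its like are highest in high glucose, and STC2 and its like in low glucose.

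Protein-coding genes near the stanniocalcins were looked at as well. No annotated gene overlaps either one in GENCODE 29. Near STC1 lie the homeobox gene NKX2-6 and the metalloprotease genes ADAM28 and ADAMDEC1. With chrysin against high glucose NKX2-6 rose (0.25, adjusted p = 0.0189, lost without chrysin library 3 or high glucose library 1 or 2) and ADAM28 rose (0.62, adjusted p = 0.00539), while STC1 stood at -2.23. NKX2-6 also rose in high against low glucose, where STC1 stood at 1.24 (0.30 for NKX2-6, adjusted p = 0.0142, lost without high or low glucose library 3), and ADAM28 stood at -0.23 (adjusted p = 0.307). ADAMDEC1 was listed at 0 in every library. Beside STC2 lie BNIP1 and NKX2-5 on one side and BOD1 and CPEB4 on the other. NKX2-5, a transcription factor of heart development, was listed at 0 in every library. BOD1 fell in high against low glucose (-0.28, adjusted p = 0.00217) and stood at 0.00 with chrysin against high glucose (adjusted p = 0.966), where STC2 stood at -0.89. BNIP1 and CPEB4 passed the test in none of the 3 comparisons (adjusted p = 0.106 to 0.982), except that CPEB4 did so for chrysin against high glucose without high glucose library 3 (0.16, adjusted p = 0.0427).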

How the data were processed

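RNA of 9 AC16 libraries was analysed from 1 deposited table of FPKM values, a unit read from the values since no header names it. Per the submitters' processing notes, the authors' tools include HTSeq 0.13.5 and StringTie 2.2.1, besides HISAT2 2.2.1 and fastp 0.23.4, on build hg38, with neither role nor order stated. The sources used here give no annotation release or strand setting. Low values were multiples of a step per gene and library, so whole reads could be recovered for 28230 genes, each one that was above 0 in at least 2 libraries (100% of them, within 4.96e-05 reads of a whole number), up to a common divisor. The length implied by the FPKM was within 5% of the mean GENCODE 29 transcript length for 81.1% of 10547 genes with 2 or more transcripts and at least 50 reads in every library. FPKM from mean transcript length can misstate levels between genes, and differences between groups where transcript usage differs, which was not tested.

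limma 3.58.1 (R 4.3.3, mean-variance trend) was fitted to log2(FPKM + 0.5) of all 9 libraries with a mean per group, for the 16996 genes averaging 0.5 FPKM or more in some group. Tests were two-sided, with Benjamini-Hochberg adjustment over all genes tested and a threshold of 0.05. With 3 libraries a group, the smallest p an exact permutation test allows is 0.1. The method was also run on simulated reads with known changes in high glucose only, and the outcome is not reported here. Members, lists and the naming rule were chosen with earlier results of these data known. Named were STC1 and STC2, list members with the smallest p or needed for a count, the 6 most alike and 3 most opposite genes, and nearby protein-coding genes (GENCODE 29), some of which are not reported here. ATP2B4, BNIP3, CALR, CDC42EP3, DDIT4, DEPP1, FHOD1, HERPUD1, HIF1A, IDH1, IGF2R, LDHA, ORAI2, PFKFB4, PHLDA1, SARAF, SLC7A5, STIM1, TRPC1, TUBA1A and VEGFA overlap another tested gene in GENCODE 29, from whose reads theirs may not be separable without strand. The alternatives changed the pseudocount (0.1, 1), dropped the filter or raised it to 5 FPKM, rescaled libraries by median of ratios, used limma voom on the recovered reads, blocked on replicate number, fitted only the groups compared, left out each library or, added after seeing the data, levels per base of the longest transcript.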

Additional observations from a re-analysis of the deposited data

How the results depend on the processing

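The signs of the STC1 and STC2 fold changes held under every alternative run. STC1 is low, so its size moved with the pseudocount: for chrysin against high glucose it was -2.60 with 0.1, -1.90 with 1 and -2.72 with limma voom on recovered reads; for high against low glucose 1.37, 1.11 and 1.40; and for chrysin against low glucose -1.23, -0.79 and -1.32. With median-of-ratios scaling STC2 was -0.50 in high against low glucose and -1.41 with chrysin against low glucose. The log2 ratio of STC1 to STC2 (-7.68 with chrysin, -5.84 in high glucose, -7.72 in low glucose) was -6.65, -5.64 and -7.22 with a pseudocount of 1, and -6.33, -4.49 and -6.37 per base of the longest transcript.

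The counts of genes called (7792, 4002 and 8664 for chrysin against high glucose, high against low glucose and chrysin against low glucose) stayed within 1.5 times. Same-numbered libraries did not deviate together (r = -0.015 to 0.008, and 2 of 18 best partners shared a number), so the numbers were not taken as pairs. With the replicate block STC1 and STC2 had the same fold changes (-2.23 and -0.89 for chrysin against high glucose), and the 1 stanniocalcin partner that rose in high against low glucose, HMOX1, was not called (0), as with no filter (0) or median-of-ratios scaling (0). TRPC1 was not called under the block with chrysin against high glucose (adjusted p = 0.0527) or in high against low glucose (adjusted p = 0.0577).

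Small list counts moved most. IGF list members that fell were 1 with a mean of at least 5 FPKM for chrysin against high glucose (2 to 4 over libraries left out), 1 with no filter and 1 with the 5 FPKM minimum for high against low glucose (1 to 2), and 2 with that minimum for chrysin against low glucose. Calcium genes that rose were 2 with limma voom for chrysin against high glucose and 1 with median-of-ratios scaling for chrysin against low glucose (1 to 3), and those that fell were 3 with no filter for chrysin against high glucose (3 to 5). Partners that fell in high against low glucose were 1 with no filter (1 to 2), those that rose there 0 to 1, and those that rose with chrysin against low glucose 1 with the 5 FPKM minimum. HIF targets that rose with chrysin against high glucose were 1 with median-of-ratios scaling (1 to 2), and against low glucose 0 to 1. HIF subunits that rose were 0 to 1, ATF4 targets that rose 2 with a pseudocount of 0.1 and 2 with the 5 FPKM minimum (1 to 2), and ER stress genes that rose 1 with that minimum and 2 with limma voom (0 to 1), all for chrysin against high glucose. Near 0, the sign of uncalled genes turned in 5 results. With chrysin against high glucose, over libraries left out, HIF1A ranged from -0.003 to 0.075, BNIP1 from -0.009 to 0.136 and BOD1 from -0.027 to 0.045 (-0.026 with median-of-ratios scaling), and with chrysin against low glucose BNIP1 ranged from -0.076 to 0.062 and CPEB4 from -0.015 to 0.007. The cause of these changes was not tested, beyond the fewer genes that the 5 FPKM minimum leaves. Depth limits STC1, at 43 to 62 reads per chrysin library.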
